A study of Mus musculus with 6 samples.

Results

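The genes of collagen chains were followed in obstructed mouse kidney with and without Dkk3. Members were taken by name, as genes whose symbol has the form Col, number, a, number, and 43 of the 18421 genes in the table the authors deposited met this rule. By structural class they comprised 11 fibrillar chains, 6 basement membrane chains of type IV, 7 beaded filament chains of types VI and XXVIII, 3 network-forming chains of types VIII and X, 8 fibril-associated chains (FACIT collagens), 4 transmembrane chains, 2 multiplexins, the anchoring fibril chain Col7a1 and Col26a1. The annotated chain gene Col9a1 was not analysed here.

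Whole kidneys came from 3 Dkk3-/- mice and 3 C57Bl/6 mice carrying Dkk3, and were taken 7 days after unilateral ureteral obstruction (UUO). In this operation 1 ureter is tied off, so that the tubules atrophy and the interstitium fills with leukocytes and matrix. All 6 mice had undergone UUO, and the labels give C57Bl/6 as the background strain of both groups. Unobstructed kidneys were not analysed here, so the values show how the genotypes differed after obstruction and not what obstruction did. RNA was sequenced in bulk. The deposited values are the authors' edgeR test results, which hold no value per mouse, and neither library depth nor the spread between mice is known. Below, a group level is what the deposited average in CPM (read counts scaled to a common library size) and the deposited fold change together imply, and the approximate standard error (SE) of a log2 fold change is its size over the root of the likelihood-ratio score.

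Collagens are proteins of 3 chains wound into a helix with glycine recurring at regular steps. Fibrillar collagens of types I, III and V form the cables of interstitial scar and are made mainly by fibroblasts and pericytes. Type IV collagen forms the sheet of basement membranes, type VI forms beaded filaments next to cells, and FACIT collagens decorate the surface of fibrils. In the obstructed kidney interstitial collagen is a customary measure of fibrosis. Dkk3, a secreted glycoprotein of the dickkopf family, is made by stressed tubular cells.

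Dkk3 itself checked the labels and the direction of the comparison, which the header of the authors' deposited table does not name. Its log2 fold change was -4.43 (adjusted p = 2.98e-67, edgeR's likelihood-ratio test) per the authors' deposited table, and fold changes were therefore taken to be knockout over wild type. Its implied level was 2.06 CPM in the knockout and 44.4 CPM in the wild type. None of the 43 collagen genes lies on chromosome 7, where Dkk3 lies. Kidney identity was checked by markers, and all 5 of the proximal tubule, all 5 of the collecting duct and all 5 of the podocyte averaged over 10 CPM.

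Of the 43 collagen genes, 1 rose and 1 fell in the knockout at an adjusted p under 0.05, beside 2.06% of all genes per the authors' deposited table (1.17% higher and 0.890% lower). The FACIT gene Col12a1 rose 1.33-fold and Col26a1 fell 2.02-fold. The abundant chains of types I, III and IV did not pass. At an adjusted p under 0.1 there were 4 collagen genes, with Col6a4 and Col10a1 added, beside 3.14% of all genes. At an unadjusted p under 0.05, 7 collagen genes were higher and 4 lower in the knockout, 25.6% of the 43, beside 10.6% of all genes per the authors' deposited table (5.91% higher and 4.71% lower). These 11 were not concentrated in 1 class and did not share a direction. The median log2 fold change of the 43 was 0.10, with 24 above 0 and 19 below, beside a median of 0.01 over all genes with 52.3% above 0. In bulk tissue, fewer cells of a type and less RNA per cell cannot be told apart.

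**Figure D1:**
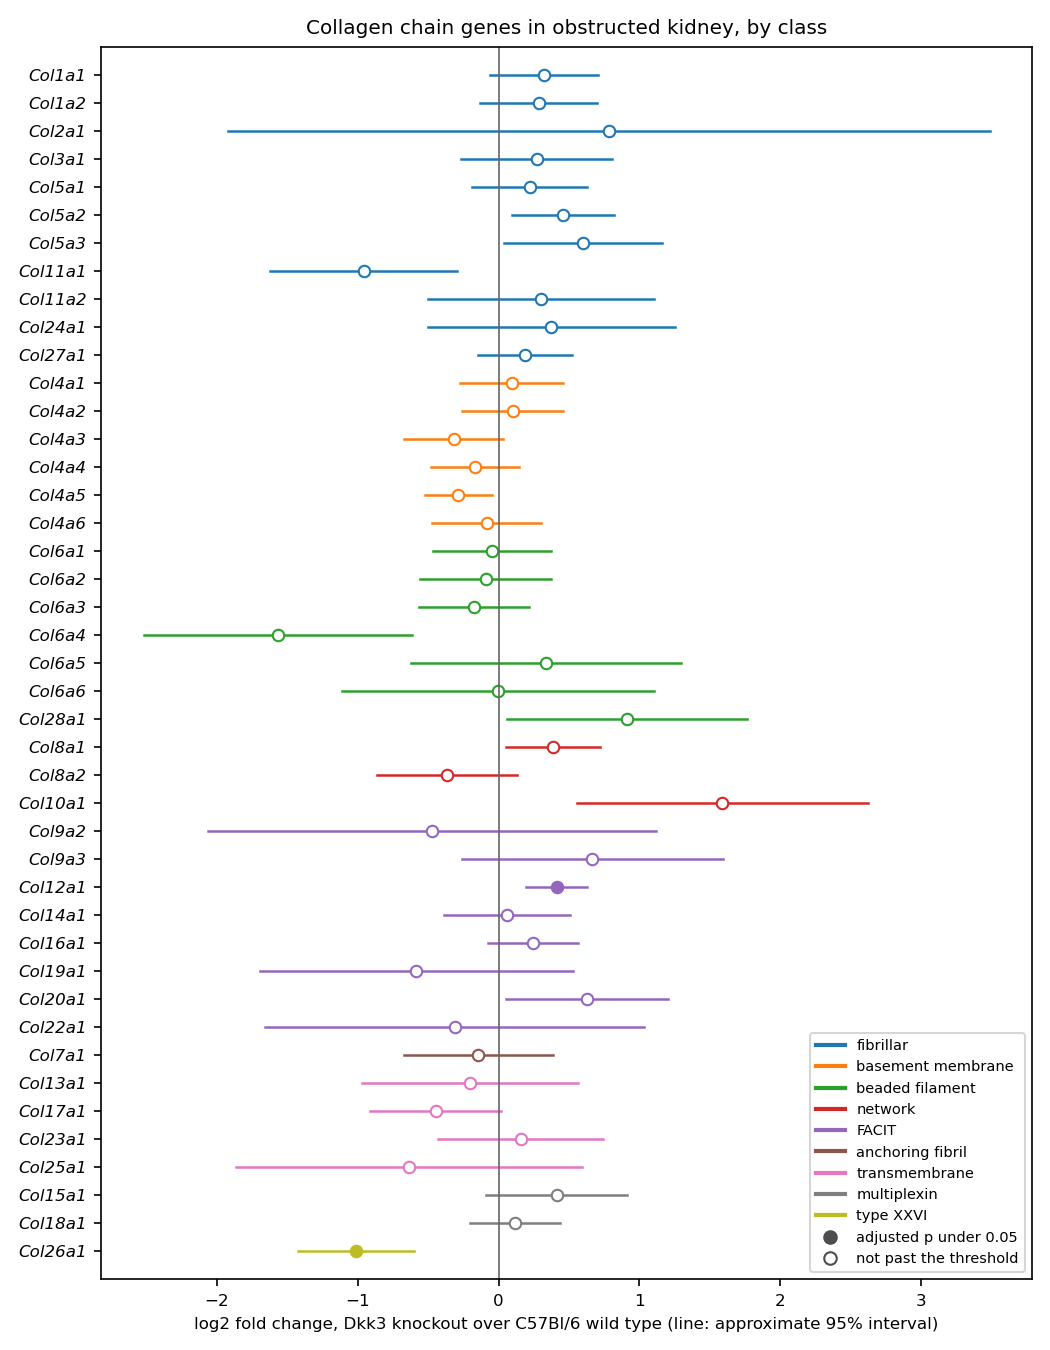
Log2 fold change (knockout over wild type, x axis) of each of the 43 collagen chain genes (y axis), ordered and coloured by class, with lines for approximate 95% intervals and filled points for an adjusted p under 0.05. The filled points are Col12a1 at 0.41 and Col26a1 at -1.02, and 10 of the 11 fibrillar points lie right of 0.

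Col12a1 (ENSMUSG00000032332, chromosome 9, 79598991 to 79718831 on GRCm38, minus strand) encodes the type XII chain, which binds the surface of type I fibrils and bears mechanical load. Its implied level was 111 CPM in the knockout and 83.2 CPM in the wild type. In the authors' deposited table its log2 fold change was 0.41 (adjusted p = 0.0135, edgeR's likelihood-ratio test), with an approximate SE of 0.11 and an approximate 95% interval of 0.20 to 0.63. Col12a1 had the smallest SE of all 43 genes, so that a log2 difference of 0.36 would have sufficed to pass, against 0.75 for its closest relative Col14a1. Col14a1, which encodes the type XIV chain of fibril surfaces, stood at a log2 fold change of 0.06 (adjusted p = 0.984) per the authors' deposited table, with implied levels of 74.7 CPM in the knockout and 71.7 CPM in the wild type. The call of Col12a1 ended with an F distribution in place of chi-square (adjusted p = 0.171) and at a minimum fold change of 1.5.

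Col26a1 (ENSMUSG00000004415, chromosome 5, 136741759 to 136883209 on GRCm38) encodes a secreted protein with short collagenous stretches behind an EMI domain, and belongs to none of the large classes. Its implied level was 4.55 CPM in the knockout and 9.20 CPM in the wild type, so it was a scarce transcript. In the authors' deposited table its log2 fold change was -1.02 (adjusted p = 2.95e-04, edgeR's likelihood-ratio test), with an approximate SE of 0.21 and an approximate 95% interval of -1.43 to -0.60. The call ended with the F distribution (adjusted p = 0.0570). Of the distinct stretches of 50 nt in its transcripts, the read length, 1.88% also occur in transcripts of other genes. What share of its reads came from such stretches is unknown.

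Of the 24 collagen genes above 0, 10 were fibrillar. Of the 11 fibrillar genes 10 were above 0 with a class median of 0.30, or 1.23-fold. None passed in edgeR's test, beside 2.06% of all genes. At an unadjusted p under 0.05, 2 were higher and 1 lower in the knockout (27.3%), beside 10.6% of all genes. The implied levels of the class summed to 1771 CPM in the knockout and 1446 CPM in the wild type. The chains of type I, the main fibril of scar, stood close to each other per the authors' deposited table, with a log2 fold change of 0.32 for Col1a1 (adjusted p = 0.609) and 0.28 for Col1a2 (adjusted p = 0.757). Col1a1 had an implied level of 284 CPM in the knockout and 227 CPM in the wild type. Col1a2 had 493 CPM in the knockout and 405 CPM in the wild type. The approximate 95% interval of Col1a1 ran from 0.96-fold to 1.63-fold and that of Col1a2 from 0.91-fold to 1.62-fold, so neither a difference of 0 nor one of 1.5-fold lay outside them. For Col1a1 a log2 difference of 0.64 was needed to pass.

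Type III collagen, which accompanies type I in soft tissue, had the highest fibrillar level. Col3a1 stood at an implied 775 CPM in the knockout and 642 CPM in the wild type, with a log2 fold change of 0.27 (adjusted p = 0.827) per the authors' deposited table. Type V chains sit in the core of fibrils and set their diameter. The log2 fold changes per the authors' deposited table were 0.22 for Col5a1 (p = 0.289, adjusted p = 0.805), 0.46 for Col5a2 (p = 0.0132, adjusted p = 0.236) and 0.60 for Col5a3 (p = 0.0352, adjusted p = 0.402). Col5a2, whose product joins the Col5a1 product in the common type V molecule, had an implied level of 113 CPM in the knockout and 81.9 CPM in the wild type. Col5a2 and Col3a1 are neighbours on chromosome 1, 24.6 kb apart in opposite directions. The 1 fibrillar gene below 0 was Col11a1, a cartilage fibril chain, with a log2 fold change of -0.96 (p = 0.00466, adjusted p = 0.129) per the authors' deposited table and implied levels of 0.942 CPM in the knockout and 1.83 CPM in the wild type. The other fibrillar genes, Col2a1, Col11a2, Col24a1 and Col27a1, ran from 0.19 to 0.78 in log2 fold change per the authors' deposited table, with the smallest unadjusted p at 0.266.

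The 6 type IV genes were divided by chain. In basement membranes the alpha 1 and alpha 2 chains form the widespread network, while alpha 3, alpha 4 and alpha 5 form the network of the glomerular basement membrane, made by podocytes, and of some tubules. Col4a1 and Col4a2 were slightly above 0, whereas Col4a3, Col4a4, Col4a5 and Col4a6 were below it. None of the 6 passed in edgeR's test, beside 2.06% of all genes. At an unadjusted p under 0.05 there was 1 (16.7%), beside 10.6% of all genes. Col4a1 had an implied level of 1055 CPM in the knockout and 989 CPM in the wild type, and a log2 fold change of 0.09 (adjusted p = 0.959) per the authors' deposited table. Its partner Col4a2 had 591 CPM in the knockout and 551 CPM in the wild type, and a log2 fold change of 0.10 (adjusted p = 0.947) per the authors' deposited table. Approximate 95% intervals of this pair ran from 0.83-fold to 1.38-fold for Col4a1 and from 0.84-fold to 1.37-fold for Col4a2. These genes lie head to head on chromosome 8 with annotated starts that overlap by 22 bases, and their log2 fold changes differed by 0.01.

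The minor type IV chains had lower levels in the knockout without passing the threshold. The implied levels of Col4a3, Col4a4 and Col4a5 together were 239.7 CPM in the knockout and 288 CPM in the wild type. In the authors' deposited table the log2 fold changes were -0.32 for Col4a3 (p = 0.0736, adjusted p = 0.559) and -0.17 for Col4a4 (p = 0.298, adjusted p = 0.813). Col4a5, on the X chromosome, stood at a log2 fold change of -0.29 (p = 0.0186, adjusted p = 0.290) per the authors' deposited table, with implied levels of 48.1 CPM in the knockout and 58.6 CPM in the wild type. The scarce Col4a6, whose chain pairs with alpha 5 in Bowman's capsule, stood at -0.08 (adjusted p = 0.963) per the authors' deposited table. Beside these values, all 5 podocyte markers were above 0, with summed levels of 322 CPM in the knockout and 302 CPM in the wild type. None of these markers had an unadjusted p under 0.05 by edgeR, beside 10.6% of all genes. All 5 collecting duct markers were below 0, with summed implied levels of 176 CPM in the knockout and 292 CPM in the wild type. The part of either cell type in the type IV values was not tested. A transcript annotated on the opposite strand covers 5.65% of the annotated exon bases of Col4a3, and since the use of strand is not given, reads from that stretch cannot be told apart.

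Col4a5 and Col4a6 also stand head to head, with RefSeq starts 1343 bp apart, and the stretches before the starts are shown because the genes share this interval while their log2 fold changes were -0.29 and -0.08. Each runs 5′ to 3′ in the direction of its own gene (RefSeq, GRCm38.p6) and is limited to bases before the first annotated start. Capitals mark the CCAAT box and the GC box GGGCGG on either strand, 2 common promoter motifs that do not overlap each other here.
Col4a5, chrX:141475169-141475384, plus strand: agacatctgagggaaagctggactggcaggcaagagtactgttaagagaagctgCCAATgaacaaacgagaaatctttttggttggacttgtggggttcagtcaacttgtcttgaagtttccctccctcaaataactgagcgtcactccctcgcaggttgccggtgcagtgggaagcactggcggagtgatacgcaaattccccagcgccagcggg
Col4a6, chrX:141474077-141474326, minus strand: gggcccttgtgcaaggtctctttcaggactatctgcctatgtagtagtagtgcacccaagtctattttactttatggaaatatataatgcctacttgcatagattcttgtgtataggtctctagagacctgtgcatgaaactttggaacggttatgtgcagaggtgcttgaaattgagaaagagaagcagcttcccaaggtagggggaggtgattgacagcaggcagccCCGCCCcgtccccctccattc
The stretch of Col4a5 holds a CCAAT box and that of Col4a6 a GC box close to its start, while a GC box of the Col4a5 window lies beyond the bases shown. RefSeq windows were matched for 34 of the 43 collagen genes. The called genes Col12a1 and Col26a1, and Col1a1, were among those without a window. In the 250 bases before the start, CCAAT occurred on either strand in 33.3% of the 36 collagen windows, beside 33.8% of 32851 windows of all genes. GGGCGG occurred in 61.1% of the collagen windows, beside 32.7% of all windows. The windows of all genes were not matched to the collagen windows in base composition, and the difference was not tested.

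Type VI collagen, the beaded filament of the pericellular matrix, gave no call in edgeR's test, beside 2.06% of all genes. Its principal chains Col6a1, Col6a2 and Col6a3 had log2 fold changes of -0.05, -0.09 and -0.18 per the authors' deposited table, with adjusted p of 0.988, 0.969 and 0.868, and their implied levels together were 164 CPM in the knockout and 177 CPM in the wild type. The rare chain gene Col6a4 had the lowest log2 fold change of all 43 collagen genes, at -1.57 with an approximate SE of 0.49 (p = 0.00125, adjusted p = 0.0563, edgeR's likelihood-ratio test) per the authors' deposited table. Its implied level was 1.29 CPM in the knockout and 3.84 CPM in the wild type. It stood just outside the threshold, and an adjustment over genes at 1 CPM or more put it just inside (adjusted p = 0.0497). Its neighbours on chromosome 9, Col6a5 and Col6a6, stood at 0.34 and -0.01 in log2 fold change per the authors' deposited table (adjusted p = 0.925 and 1.00). Both averaged under 1 CPM. The related type XXVIII gene Col28a1 stood at a log2 fold change of 0.91 (p = 0.0354, adjusted p = 0.403) per the authors' deposited table, at 1.03 CPM in the knockout and 0.548 CPM in the wild type. The stretch before the first annotated start of Col6a4 (RefSeq, GRCm38.p6) is shown since this gene had the lowest log2 fold change, with the CCAAT box and the GC box in capitals as above.
Col6a4, chr9:106096784-106096941, minus strand: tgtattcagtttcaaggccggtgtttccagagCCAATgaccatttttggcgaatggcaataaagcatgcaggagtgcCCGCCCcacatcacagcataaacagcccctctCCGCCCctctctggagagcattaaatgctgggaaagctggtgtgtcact
It holds 1 CCAAT box and, on the opposite strand, 2 GC boxes, which describes these letters only.

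Among the network-forming chains, Col8a1 and Col10a1 were above 0 and Col8a2 was below. None of the 3 passed in edgeR's test, beside 2.06% of all genes. At an unadjusted p under 0.05 there were 2 (66.7%), beside 10.6% of all genes. Col8a1 encodes a type VIII chain of vessel walls and of endothelial matrix. Its log2 fold change was 0.39 (p = 0.0226, adjusted p = 0.319) per the authors' deposited table, with implied levels of 60.6 CPM in the knockout and 46.3 CPM in the wild type. Its partner chain gene Col8a2 stood at -0.37 (p = 0.151, adjusted p = 0.731) per the authors' deposited table, at a 10.0-fold lower average per kb. Col10a1, best known from hypertrophic cartilage, had the highest log2 fold change of all 43 collagen genes at 1.59 with an approximate SE of 0.53 (p = 0.00264, adjusted p = 0.0906, edgeR's likelihood-ratio test) per the authors' deposited table. It averaged 0.989 CPM, with an implied 1.48 CPM in the knockout and 0.493 CPM in the wild type.

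The remaining FACIT genes lay on both sides of 0. At 1 CPM or more, all 4 FACIT genes (Col12a1, Col14a1, Col16a1 and Col20a1) were above 0, and below 1 CPM 1 of 4 was. Col16a1, whose product links fibrils to neighbouring matrix, stood at a log2 fold change of 0.24 (p = 0.133, adjusted p = 0.691) per the authors' deposited table, with an implied 41.3 CPM in the knockout and 34.8 CPM in the wild type. Col20a1 stood at 0.63 (p = 0.0332, adjusted p = 0.390) per the authors' deposited table, with an average of 1.91 CPM. The scarce genes Col9a2, Col9a3, Col19a1 and Col22a1 averaged 0.232 to 0.680 CPM and had approximate SE of 0.47 to 0.81, so that a difference of at least 2.93-fold was needed to pass.

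The multiplexins, proteoglycan collagens of basement membrane zones, were both above 0. Neither passed in edgeR's test or had an unadjusted p under 0.05, beside 2.06% and 10.6% of all genes. Col18a1, the source of the fragment endostatin, stood at an implied 667 CPM in the knockout and 616 CPM in the wild type, with a log2 fold change of 0.11 (adjusted p = 0.922) per the authors' deposited table. Col15a1, found beneath capillaries and muscle, stood at 223 CPM in the knockout and 168 CPM in the wild type, with a log2 fold change of 0.41 (p = 0.107, adjusted p = 0.624) per the authors' deposited table. Although this log2 difference was as large as that of Col12a1, the SE of Col15a1 was 0.26.

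Of the transmembrane chains, 3 of 4 were below 0. None passed in edgeR's test and none had an unadjusted p under 0.05, beside 2.06% and 10.6% of all genes. Col17a1, a hemidesmosome component that anchors stratified epithelium to its basement membrane, stood at a log2 fold change of -0.45 (p = 0.0604, adjusted p = 0.510) per the authors' deposited table, with implied levels of 8.46 CPM in the knockout and 11.5 CPM in the wild type. The anchoring fibril gene Col7a1, of the same junction, stood at -0.14 (adjusted p = 0.951) per the authors' deposited table. Beside them all 5 markers of the urothelium, a stratified epithelium, were below 0, and 2 were called (40%), beside 2.06% of all genes. The summed implied levels of these markers were 9.77 CPM in the knockout and 41.8 CPM in the wild type. Their part in the Col17a1 value was not tested. Col13a1, Col23a1 and Col25a1 averaged 0.386 to 2.02 CPM and ran from -0.64 to 0.16 in log2 fold change per the authors' deposited table.

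By summed CPM basement membrane and fibrillar chains held the largest shares, and per kb the multiplexin Col18a1 also stood among the highest. The deposited averages of the 43 genes summed to 4782 CPM, of which type IV held 39.0%, fibrillar chains 33.6% and multiplexins 17.5%. The 6 highest genes by CPM were Col4a1, Col3a1, Col18a1, Col4a2, Col1a2 and Col1a1, with 76.3% of the sum. Per kb of annotated exon, Col4a1 led at 137 CPM, followed by Col18a1 at 91.4, Col4a2 at 86.3, Col3a1 at 72.1, Col1a1 at 38.9, Col1a2 at 36.1 and Col15a1 at 30.8 CPM per kb. Lengths of the longest protein-coding transcript, a choice added after seeing the data, moved Col3a1 to 127 and Col1a2 to 83.9 CPM per kb and so changed their places in this order. With Col1a1 at 43.1 CPM per kb on that scale, the relative level of the type I chains depends on the length used. The summed implied level of all 43 genes was 5040 CPM in the knockout and 4524 CPM in the wild type, a ratio of 1.11, which has no error since no value per mouse was at hand.

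**Figure D2:**
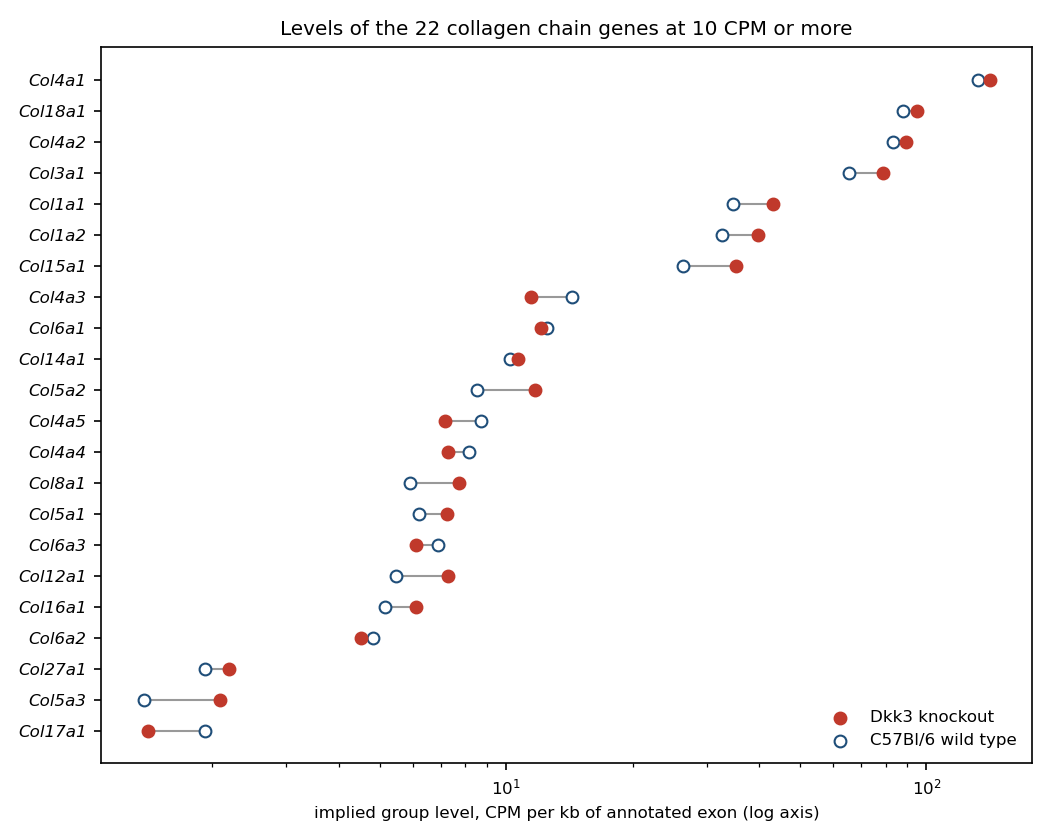
Implied group levels in CPM per kb of annotated exon (x axis, log scale) of the 22 collagen genes averaging 10 CPM or more, filled for the knockout and open for the wild type. The filled point lies right of the open one for 15 genes, among them Col1a1 (43.2 against 34.6), and left of it for 7, among them Col4a3 (11.5 against 14.3).

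Collagen genes were also counted by level, with no test of a difference between levels. Of the 8 collagen genes at 100 CPM or more, 7 were above 0 (median 0.19), beside 42.0% of all genes at that level (median -0.02). Of the 14 collagen genes at 10 to 100 CPM, 8 were above 0 (median 0.12). Of the 10 collagen genes at 1 to 10 CPM, 3 were above 0 (median -0.17), beside 55.4% of all genes at that level (median 0.04). Of the 11 collagen genes under 1 CPM, 6 were above 0 (median 0.34), with a median SE of 0.56. The collagen genes at 100 CPM or more included none at an unadjusted p under 0.05 by edgeR, beside 9.12% of all genes at that level. The collagen genes share tissue and libraries, so the counts are a description.

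Genes that modify, cleave and crosslink procollagen gave 1 call among 35 measured, P4ha3, and a median log2 fold change of 0.11. That was 2.86% of the list, beside 2.06% of all genes. At an unadjusted p under 0.05 by edgeR there were 7 (20%), beside 10.6% of all genes. P4ha3 encodes a catalytic subunit of prolyl 4-hydroxylase, which hydroxylates proline and so steadies the helix. It rose on the log2 scale by 1.65 (adjusted p = 0.0222, edgeR's likelihood-ratio test) per the authors' deposited table, at only 1.04 CPM in the knockout and 0.331 CPM in the wild type. The call ended with the F distribution, and the gene was not tested at 1 CPM or more. P4ha3 lies on chromosome 7 (100285520 to 100319699 on GRCm38), as does Dkk3 (112116017 to 112159057). Serpinh1 of the same list also lies there (99345376 to 99353239), at a log2 fold change of 0.13. Whether DNA around the targeted allele bears on the value of P4ha3 was not tested. The abundant subunit gene P4ha1 stood at 0.02 (adjusted p = 0.990) and the lysyl hydroxylase gene Plod2 at -0.08 (adjusted p = 0.944) in log2 fold change per the authors' deposited table. Serpinh1, the collagen chaperone HSP47, stood at 0.13 (adjusted p = 0.862), the procollagen protease enhancer Pcolce at -0.07 (adjusted p = 0.944) and the crosslinking enzyme gene Lox at 0.31 (adjusted p = 0.728) in log2 fold change per the authors' deposited table. At an unadjusted p under 0.05, Bmp1 (0.36), which trims the C-propeptide, the lysyl oxidase gene Loxl3 (0.35) and the prolyl 3-hydroxylase family gene P3h3, listed as Leprel2 (0.34), were higher in log2 fold change per the authors' deposited table. By the same measure P3h2, listed as Leprel1 (-0.34), and the fibril-binding proteoglycans Fmod (-0.69) and Lum (-0.56) were lower per the authors' deposited table. None of these 6 passed an adjusted p of 0.05, the smallest being 0.180.

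No collagen receptor gene passed in edgeR's test among 10 measured (median 0.17), beside 2.06% of all genes. At an unadjusted p under 0.05 there was 1 (10%), beside 10.6% of all genes. It was the integrin gene Itga10 (log2 fold change 0.67, adjusted p = 0.445 per the authors' deposited table). The discoidin domain receptor genes, receptor tyrosine kinases that collagen activates, stood at -0.05 for Ddr1 (adjusted p = 0.968) and 0.39 for Ddr2 (p = 0.0680, adjusted p = 0.541) in log2 fold change per the authors' deposited table. Itgb1, the beta chain shared by the collagen-binding integrins, stood at 0.12 (adjusted p = 0.888) per the authors' deposited table.

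Genes of collagen breakdown and its inhibitors had the highest median of the machinery lists, 0.34 over 16 measured, beside 0.01 over all genes. At an unadjusted p under 0.05 by edgeR there were 6 (37.5%), all higher, beside 10.6% of all genes. At an adjusted p under 0.05 (2.06% of all genes), 1 of the 16 was called (6.25%). That was Timp1, an inhibitor of matrix metalloproteinases and so no degrading enzyme itself, which rose on the log2 scale by 0.64 (adjusted p = 0.0215, edgeR's likelihood-ratio test) per the authors' deposited table, with implied levels of 63.6 CPM in the knockout and 40.9 CPM in the wild type. The call ended with the F distribution. Also at an unadjusted p under 0.05 and higher in the knockout were the collagenolytic cathepsin gene Ctsk (0.58, adjusted p = 0.0966), Mmp14 (0.49, adjusted p = 0.157), a membrane-bound collagenase, and the gelatinase gene Mmp2 (0.46, adjusted p = 0.365) in log2 fold change per the authors' deposited table. So were Ctss (0.54, adjusted p = 0.184) and Fap (0.77, adjusted p = 0.398) per the authors' deposited table. The gelatinase gene Mmp9 stood at 0.45 (p = 0.221, adjusted p = 0.757) per the authors' deposited table. Of the 16, 12 were above 0 and 4 below, among the latter the abundant inhibitor gene Timp3 (-0.15, adjusted p = 0.896). The abundant cathepsin genes Ctsl and Ctsb stood at 0.24 (adjusted p = 0.708) and 0.14 (adjusted p = 0.864) in log2 fold change per the authors' deposited table.

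Markers of collagen-making cells were examined beside these values, and the proteoglycan genes Dcn and Lum stand both there and in the processing list. None of the 13 fibroblast and pericyte markers was called in edgeR's test, beside 2.06% of all genes, and 9 of the markers were above 0 (median 0.24). Their summed implied levels were 1408 CPM in the knockout and 1177 CPM in the wild type. At an unadjusted p under 0.05 by edgeR were 5 of the 13 (38.5%), beside 10.6% of all genes. Tagln, Fn1, Vim and S100a4 were higher and Lum was lower. The 4 markers below 0 were Lum (-0.56), Postn (-0.47), Rgs5 (-0.15) and Dcn (-0.07) in log2 fold change per the authors' deposited table. The list was thus not uniform in direction. Macrophage markers were above 0 in 6 of 6 cases, with summed levels of 776 CPM in the knockout and 572 CPM in the wild type. None of the 6 was called, and 3 (50%) had an unadjusted p under 0.05 by edgeR, beside 10.6% of all genes. The endothelial markers were above 0 in 5 of 5 cases (304 CPM in the knockout and 281 CPM in the wild type). None of these 5 was called or had an unadjusted p under 0.05 by edgeR. T cell markers were above 0 in 8 of 8 cases, with summed levels of 50.6 CPM in the knockout and 22.6 CPM in the wild type. Of the 8, 6 were called (75%), beside 2.06% of all genes. Proximal tubule markers summed to 2002 CPM in the knockout and 2966 CPM in the wild type, with 4 of 5 below 0. The part of these cell types in the collagen values was not tested.

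**Figure D3:**
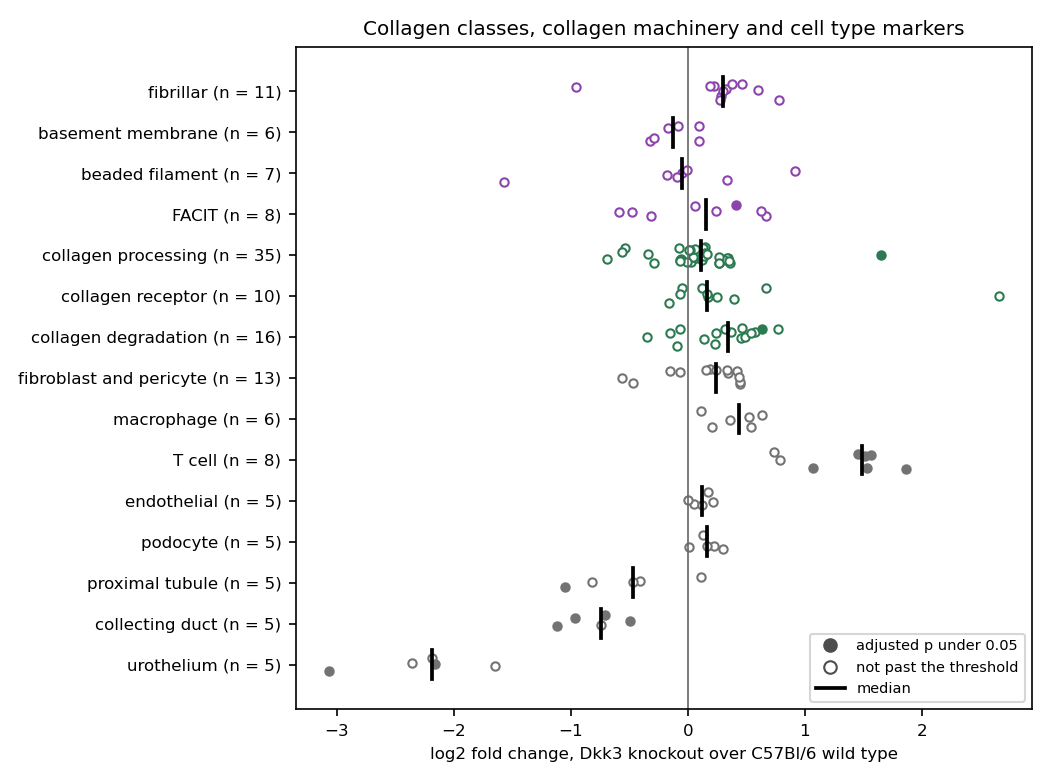
Log2 fold change (knockout over wild type, x axis) of single genes in 4 collagen classes (purple), 3 machinery lists (green) and 8 cell type marker lists (grey), with bars at the medians and filled points for an adjusted p under 0.05. The fibrillar median is 0.30. List medians include 1.49 (T cell), 0.44 (macrophage), 0.34 (degradation), 0.24 (fibroblast and pericyte), 0.17 (receptor) and 0.16 (podocyte). Those of the proximal tubule, collecting duct and urothelium lists lie below 0.

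Of the collagen terms looked up by name in the authors' own Gene Ontology table, none had an adjusted p under 0.05. Of 81 genes under the term collagen, 2 were counted as up and 1 as down (adjusted p = 1 for both sides) per the authors' deposited table. The terms fibrillar collagen (13 genes), collagen type IV (6 genes) and collagen fibril organization (38 genes) each held 0 called genes per the authors' deposited table. Collagen binding (44 genes) and collagen catabolic process (16 genes) each held 1 gene counted as up and 0 as down.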

How the data were processed

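Per the labels, 1 µg of total RNA from each of 6 whole kidneys was sequenced as single reads of 50 nt on a HiSeq 2000 in pools of 10 over 3 lanes. Per the submitters' processing notes, the authors used mm10 and edgeR. Of aligner, counter, strand setting and low-count filter, the sources used here give none. Per the file headers, each gene of the deposited table has a p-value and an FDR, a likelihood-ratio score, a log2 fold change and a mean log2 CPM of the libraries, and the Gene Ontology table of the authors holds gene numbers and p-values per term. Depth per library is unknown, so precision was read from the score alone.

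For all 18421 genes the deposited p-value equalled that of the score under chi-square (1 degree of freedom) to a relative 0.0001, and the FDR equalled the Benjamini-Hochberg value. Calls required an adjusted p under 0.05. Approximate 95% intervals are the log2 fold change ± 1.96 SE. A quasi-likelihood fit was planned for the case that counts were at hand. Group levels were solved from the deposited average and fold change as if the average were a plain mean of both groups. The average the authors deposited may include a prior count, so levels under 1 CPM are rough. Positions and lengths come from GENCODE vM21 (GRCm38, the assembly of mm10) by Ensembl identifier, which matched 43 of 43 genes.

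Members and lists were chosen with earlier results of these data known, and the promoter motifs and the genes with collagen-like domains after the values were seen. Named were genes at an unadjusted p under 0.05, the 12 highest per kb, the extremes of each class and partner chains. No set test was run. The alternatives tried were an adjusted p of 0.1, at least 1.5-fold, a minimum of 1 CPM, an inflation factor of 1.09, the F distribution (14 degrees of freedom, of which 10 assumed as prior and 4 residual), centring, other groupings and another length. The calling steps were also run on simulated independent normal scores, which cannot show whether chi-square holds with 3 mice per group. Python 3.11.15 with pandas 2.3.3, numpy 2.4.6, scipy 1.17.1 and matplotlib 3.10.9 was used.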

Additional observations from a re-analysis of the deposited data

How the results depend on the processing

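The count of called collagen genes was 2 as reported, 4 at an adjusted p under 0.1 (with Col6a4 and Col10a1), 1 with a fold change of at least 1.5 and 0 with the F distribution, where all genes called fell to 81 of 379. All genes called numbered 578 at an adjusted p under 0.1. The processing list had 0 calls at 1 CPM or more and 0 with the F distribution, and the degradation list had 2 at an adjusted p under 0.1 and 0 with the F distribution. The F distribution assumes the prior degrees of freedom, and its cause for lost calls is its wider tail. The median of the network class, 0.39, moved to 0.0111 at 1 CPM or more, where Col10a1 drops out, and to -0.0477 when type VI was counted with it. At 1 CPM or more the FACIT median was 0.33 in place of 0.15, the beaded filament median -0.13 in place of -0.05 and the transmembrane median -0.21 in place of -0.33, and the other class medians kept their sign under the alternatives run. Col6a4 was called at 1 CPM or more. Centring shifted fold changes by 0.01 on the log2 scale. Leaving out single mice could not be run without values per mouse. No paired analysis was possible because the deposited columns carry no replicate. The 11 genes under 1 CPM had a median SE of 0.56, against 0.21 for the 32 at 1 CPM or more, and library depth is unknown.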

Other observations

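Proteins outside the collagen family also carry collagen-like domains, and their genes were listed after the collagen values had been seen. Of 26 measured, 1 was called (3.85%), beside 2.06% of all genes. Above 0 were 17 (65.4%) with a median log2 fold change of 0.14, beside 52.3% and 0.01 over all genes. At an unadjusted p under 0.05 by edgeR, 7 were higher and 2 lower (34.6%), beside 10.6% of all genes. C1qtnf1, a secreted relative of complement C1q and adiponectin, rose on the log2 scale by 1.26 (adjusted p = 1.08e-08, edgeR's likelihood-ratio test) per the authors' deposited table, with implied levels of 52.0 CPM in the knockout and 21.8 CPM in the wild type. The complement genes C1qa (0.52), C1qb (0.54) and C1qc (0.49), which macrophages make and of which C1qa and C1qb also served as macrophage markers, were alike in log2 fold change per the authors' deposited table, with adjusted p of 0.152, 0.0924 and 0.195. The endothelial scavenger receptor gene Colec12 stood at 0.56 (adjusted p = 0.258) and the elastic fibre gene Emilin2 at 0.69 (adjusted p = 0.0964) in log2 fold change per the authors' deposited table. Lower at an unadjusted p under 0.05 were the ferritin receptor gene Scara5 (-0.81, adjusted p = 0.209) and the macrophage receptor gene Marco (-3.10, adjusted p = 0.127, average 0.233 CPM) per the authors' deposited table.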
